A study of Drosophila melanogaster with 2 samples.

Results

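The odorant receptor (Or), gustatory receptor (Gr) and ionotropic receptor (Ir) genes of Drosophila melanogaster were examined for binding of abrupt (ab), a transcription factor with a BTB domain and zinc fingers. Members were the protein-coding genes whose symbol is Or, Gr or Ir followed by a number and optional letters, and 179 of 13945 protein-coding genes met this rule, 59 Or, 60 Gr and 60 Ir genes. A further 7 entries named in the same way are pseudogenes and were left out. Bound chromatin had been pulled down with an antibody against green fluorescent protein and sequenced (ChIP-seq), in a transgenic line that stably carries ab fused at its C-terminus to eGFP. Whole embryos of both sexes, 0 to 24 hours old, formed 1 group of 2 biological replicates from the same line, with no other genotype, treatment or tissue. The deposited lists give 30000 regions for each replicate, 21376 for the pool of both and 1664 reproducible peaks, which make up the top of the pooled list by signal. The replicate and pooled lists are labelled as peaks and background, so a region in them is not by itself a called peak. Read depth was unknown, and the promoter that drives the fusion is not given in the sources used here. A gene counted as having a region when the region's summit lay in its territory, the gene body plus 1 kb on either side.

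Chemosensory receptors detect odours, tastes, temperature and humidity at the surface of sensory neurons. Odorant receptors work together with the co-receptor Orco, and ionotropic receptors with broadly used partners such as Ir8a, Ir25a and Ir76b. Gustatory receptors mediate responses to sugars, bitter compounds and carbon dioxide. Each receptor is used by few neurons, and many receptors are adult ones, whereas larval sense organs form during embryogenesis. In whole embryos, few cells with a bound site and weak binding in many cells cannot be told apart. All members' values come from the same embryos, so the members are not replicates.

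The sequence at the summits is shown for some of the regions described below, from the Release 6 (dm6) plus strand. It runs as far as 100 bases to either side of the summit or up to the nearest exon. The reproducible peak beside Ir60e is not among those shown. The first pair are the reproducible peaks beside the odorant receptor genes Or85f and Or88a, which lie upstream of the neighbours CG34117 and CG12402. The next is the strongest region beside Ir68b below the reproducible list, at the neighbour yps, which encodes a Y-box RNA-binding protein. The last pair are the strongest region in a receptor territory whose nearest start was that of a receptor (Gr93a), and the region of Ir67c, the only receptor gene with a pooled summit in the 250 bp before its start. Capitals mark GAGAG or its reverse complement CTCTC, the word bound by the GAGA factor Trl, and ATCGAT, the core of the Dref motif.
CG34117 peak beside Or85f, chr3R:9400054-9400197: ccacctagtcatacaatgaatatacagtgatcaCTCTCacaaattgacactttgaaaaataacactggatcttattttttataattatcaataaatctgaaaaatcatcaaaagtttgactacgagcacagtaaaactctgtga
CG12402 peak beside Or88a, chr3R:14108609-14108809: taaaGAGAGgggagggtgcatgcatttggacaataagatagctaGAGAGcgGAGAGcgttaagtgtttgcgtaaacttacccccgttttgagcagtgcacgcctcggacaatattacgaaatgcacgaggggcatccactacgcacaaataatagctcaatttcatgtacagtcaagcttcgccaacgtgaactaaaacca
yps peak beside Ir68b, chr3L:12125151-12125296: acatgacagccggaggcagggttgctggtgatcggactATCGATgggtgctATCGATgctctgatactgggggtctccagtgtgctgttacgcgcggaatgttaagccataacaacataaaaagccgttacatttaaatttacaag
Region downstream of Gr93a, chr3R:21834376-21834576: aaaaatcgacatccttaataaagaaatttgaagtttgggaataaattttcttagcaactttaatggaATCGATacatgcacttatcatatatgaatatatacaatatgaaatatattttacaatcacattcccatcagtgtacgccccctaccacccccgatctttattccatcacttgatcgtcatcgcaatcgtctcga
Region upstream of Ir67c, chr3L:10434191-10434391: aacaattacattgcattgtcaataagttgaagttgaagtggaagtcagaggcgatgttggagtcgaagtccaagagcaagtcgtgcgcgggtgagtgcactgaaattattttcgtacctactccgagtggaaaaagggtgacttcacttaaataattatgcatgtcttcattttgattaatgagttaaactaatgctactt

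The window beside Or88a held GAGAG at 3 places, that beside Or85f at 1, and the yps window held ATCGAT at 2. In windows of 201 bp, on both strands, GAGAG was found at 17 of the 66 pooled summits in receptor territories (25.8%), at 25.2% of all 21376 pooled summits and at 25.7% of the 1664 reproducible ones. Windows with 3 or more matches to GAGAG made up 2 of the 66 (3.03%), 3.56% of all pooled summits and 5.29% of the reproducible summits. ATCGAT, chosen after the sequences were seen, was found at 8 of the 66 (12.1%), at 7.96% of pooled summits and at 9.19% of reproducible ones. The full Dref word TATCGATA, which contains ATCGAT, and GGTCACAC, the core bound by M1BP, were each found at 0 of the 66, against 1.70% and 1.34% of all pooled summits. CAGGTA, a word bound by zld, was found at 6 of the 66 (9.09%) and at 4.83% of all pooled summits. These are matches of letters in short windows, and binding of the named factors was not measured.

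Reproducible ab peaks were nearly absent from the receptor genes. Of the 179 genes 3 had one in their territory, Ir60e, Or88a and Or85f, or 1.68% (95% Wilson interval 0.572 to 4.81%), against 13.2% of all protein-coding genes. By family, 2 of 59 Or genes, 1 of 60 Ir genes and 0 of 60 Gr genes had a peak, and the Wilson interval for the Gr genes reached 6.02%. Intervals cover counting error only, and the members were chosen with earlier results known, so no test was applied to these counts. None of the 3 peaks lay within a receptor gene body.

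All 3 peaks stood nearest to the start of a neighbouring gene. The peak beside Ir60e (2R, summit at 24531566) lay 28 bp upstream of CG13585 and 294 bp upstream of the divergent Ir60e. Its pooled signal, the authors' score of the region against the control, was 76.3, while replicate 1 had 24.2 and replicate 2 had 70.1. The replicates thus placed this peak at different heights, rank 1727 in replicate 1 and 222 in replicate 2.

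The peak beside Or88a, a receptor of trichoid sensilla on the antenna, lay 388 bp upstream of CG12402 and 736 bp upstream of Or88a itself (3R, 14109445 to 14110823, plus strand). It had a pooled signal of 62.0, 24.8 in replicate 1 and 37.7 in replicate 2. The peak beside Or85f, an antennal receptor, lay past the end of that gene (3R, 9398190 to 9399551, plus strand), 1907 bp from its start and 44 bp upstream of CG34117. It had 56.6 in the pool, 29.998 in replicate 1 and 26.5 in replicate 2, the only one of the 3 with the higher value in replicate 1. The reproducible list runs from 51.8 to 1007 with a median of 75.1, so the Ir60e peak lay just above its median and the other peaks below it. Signals of the replicates were scored separately by the authors and are set side by side without an SD.

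Ir68b fell just below the reproducible list. Its strongest region had 49.2 in the pool (rank 1824), 14.4 in replicate 1 and 36.6 in replicate 2, and lay 46 bp upstream of yps and 2198 bp from the start of Ir68b. The following region, 31.7 at Or46a, a maxillary palp receptor, lay 44 bp into CG18011. It had 8.46 in replicate 1 and 19.9 in replicate 2. These 5 regions were the only ones above a signal of 30 among the 66 pooled summits in receptor territories (7.58%, against 21.7% of all pooled regions), and for each of the 5 the nearest protein-coding start belonged to a gene that is not a receptor.

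**Figure D1:**
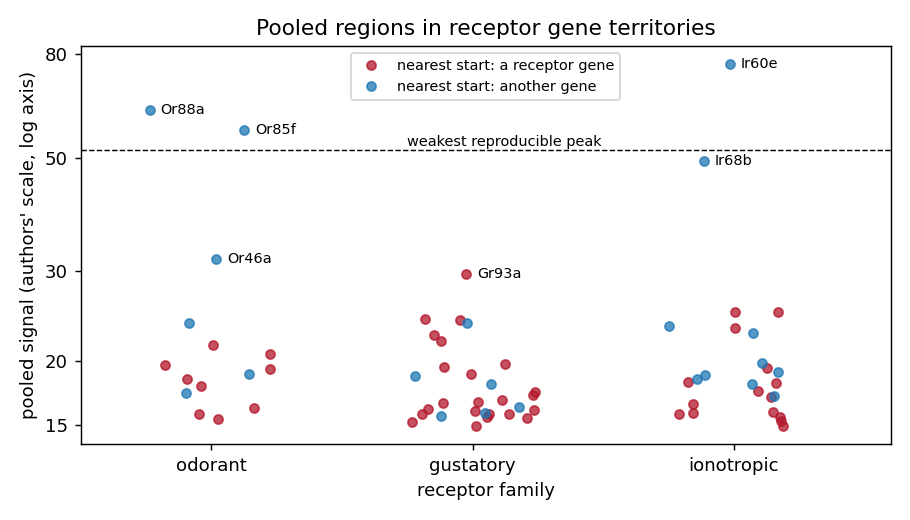
Pooled signal (log axis, authors' scale) of each region with its summit in a receptor territory, by family, one point per gene and summit; the dashed line is the weakest reproducible peak at 51.8. The 5 points above 30 are blue, nearest to the start of another gene, and the strongest red point, nearest to a receptor start, is Gr93a at 29.6.

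Counting every region of the pooled list, 54 receptor genes had one (30.2%), against 63.4% of protein-coding genes. They were 14 Or, 20 Gr and 20 Ir genes. Of the 54, 41 had 1 summit, 11 had 2, and Gr93a and Ir68b had 3. A summit inside the gene body was found at 24 of the 179 receptor genes, against 40% of all protein-coding genes. Their strongest regions had a median signal of 18.7, against 27.1 for all genes with a pooled region, and the pooled list itself begins at 14.9. In replicate 1 the medians were 9.20 and 11.7, and in replicate 2 they were 10.7 and 16.3. The strongest region per gene was thus weaker for receptor genes in each list. Genes with more summits can reach a higher strongest value, and these medians were not limited by length. Over single regions, the median pooled signal was 18.1 in receptor territories and 20.4 for all pooled regions. Receptor genes are short, with a median body of 1691 bp against 2166 bp. Among genes whose territory was 3377 to 4204 bp long, the interquartile range of the members, 31.5% of receptor genes and 57.9% of all protein-coding genes had a pooled summit, and 2.25% and 10.3% a reproducible one.

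The lists of the replicates gave different pictures. In replicate 1, 116 receptor genes had a summit (64.8%, against 73.1% of protein-coding genes), and in replicate 2, 57 had one (31.8%, against 69.8%). Both replicates had a summit at 40 receptor genes (22.3%, against 57.6%), 76 had one in replicate 1 alone, 17 in replicate 2 alone, and 45 (25.1%, against 14.1% of protein-coding genes) had no region in any list. By family, replicate 1 reached 33 of 59 Or, 35 of 60 Gr and 48 of 60 Ir genes, and replicate 2 reached 15, 24 and 18. Taking from each replicate as many of its strongest regions as the pooled list holds, 90 receptor genes had one in replicate 1, against 64.1% of protein-coding genes, and 41 in replicate 2, against 61.3%, so the pooled count of 54 depends on the replicate. With as many strongest regions as there are reproducible peaks, each replicate gave 3 receptor genes, against 14.2% of protein-coding genes in replicate 1 and 11.8% in replicate 2. They were Or85f, Or88a and Or9a in replicate 1 and Ir60e, Ir68b and Or88a in replicate 2. The region beside Or9a, with 25.8 in replicate 1, lay 82 bp upstream of Neb-cGP.

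**Figure D2:**
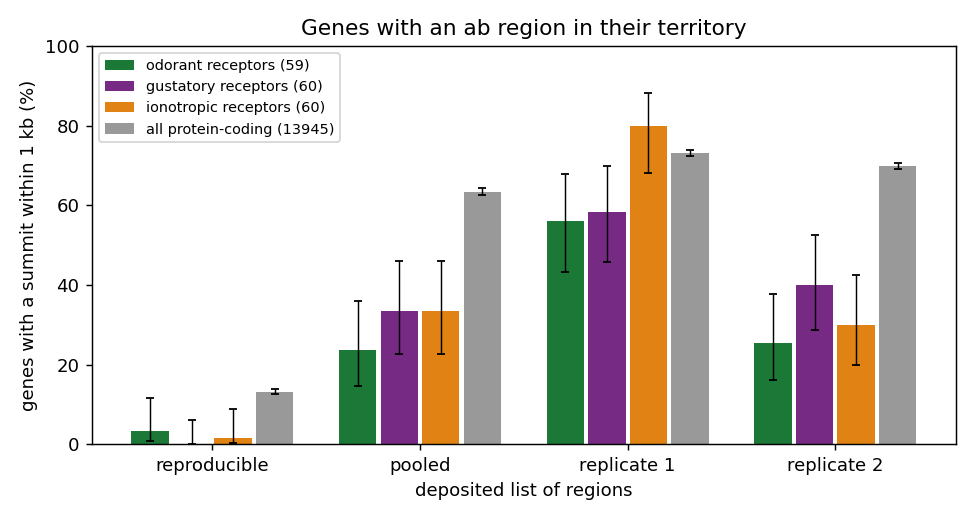
Percentage of genes with a summit in their territory in each of the 4 deposited lists, for the 3 receptor families and all protein-coding genes; bars start at 0 and error bars are 95% Wilson intervals, which cover counting error only. Receptor bars are far below the grey bar for the pooled list and replicate 2, whereas in replicate 1 the ionotropic receptors stand above the 73.1% of all genes, with 48 of 60.

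Per length, receptor territories were poor in strong regions, while weak regions differed between the replicates. The receptor territories (0.75 Mb in all) held 4.0 reproducible summits per Mb (exact Poisson 95% interval 0.825 to 11.7) against 15.1 in the territories of all protein-coding genes. Pooled summits stood at 88.0 against 183 per Mb, those of replicate 2 at 93.3 against 262, and those of replicate 1 at 225 against 239.7. By family, pooled summits stood at 149 per Mb for Gr genes, 72.7 for Or genes and 66.4 for Ir genes, so the Gr territories were the richest. Each list was cut by signal into 5 classes of equal size. In the strongest class, receptor territories had 0.173 times the density of all coding territories in the pool, 0.146 times in replicate 2 and 0.566 times in replicate 1. In the weakest class the ratios were 0.828 in the pool, 0.499 in replicate 2 and 1.11 in replicate 1. Weak regions of replicate 1 were thus about as dense in receptor territories as elsewhere, and its strong regions were not. Ir41a, with a body of 104437 bp, and Ir40a, with 24851 bp, held 9 and 4 summits of replicate 1 and 0 in the other lists. They make up much of the Ir territory, and without them the pooled density of Ir genes was 105 per Mb, above that of Or genes and below that of Gr genes. Without both genes, a setting chosen after seeing the data, the ratios over whole lists were 0.322 for reproducible peaks, 0.584 for the pool, 1.06 for replicate 1 and 0.433 for replicate 2.

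**Figure D3:**
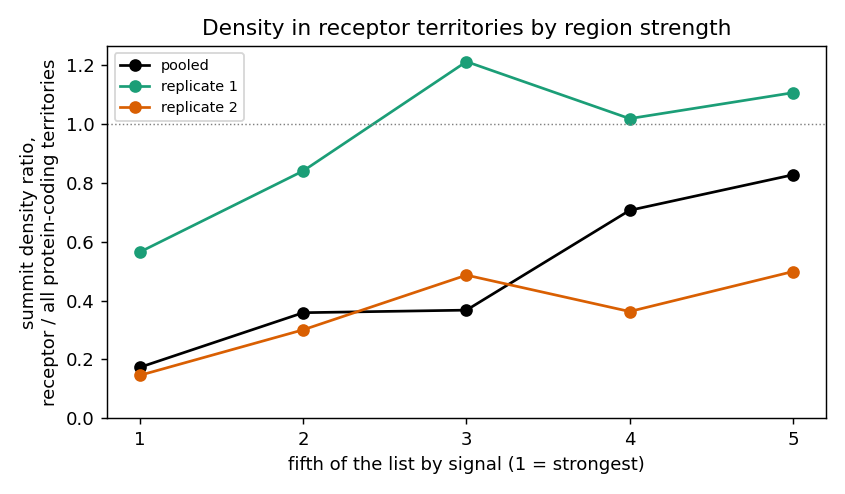
Density of summits in receptor territories divided by that in the territories of all protein-coding genes, for 5 classes of equal size in each list by signal, from the strongest (1) to the weakest (5). The ratio is lowest in the strongest class of all 3 lists and passes 1 only in the 3 weaker classes of replicate 1.

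Receptor genes lacked the concentration of regions that all protein-coding genes have upstream of their annotated starts. In the 250 bp upstream of the annotated start, 1 of the 179 receptor genes, Ir67c, had a pooled summit (0.559%), against 19.1% of all protein-coding genes. Reproducible summits stood there at 0 receptor genes (upper Wilson bound 2.10%) and at 4.71% of all genes. Replicate 1 had a summit there at 8 receptor genes (4.47%, against 19.2%) and replicate 2 at 3 (1.68%, against 19.9%). Farther upstream, from 500 to 2000 bp, receptor genes had 2.23 to 5.03 pooled summits per 100 genes in each 250 bp, and all protein-coding genes had 5.03 to 5.46, so the groups lay closer together there. The median distance from a receptor gene's start to the nearest reproducible summit was 41161 bp, against 22123 bp for all protein-coding genes. To the nearest pooled summit it was 4027 bp, against 1167 bp.

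The starts of receptor genes are poorly annotated, and this moves with the result. No 5′ UTR is annotated for 130 of the 179 receptor genes (72.6%), against 3.52% of all protein-coding genes, so the annotated start is then the start codon. Splitting genes in this way was chosen after seeing the data. Among the 361 other protein-coding genes without a 5′ UTR, 11 (3.05%) had a pooled summit in the 250 bp upstream, against 19.8% of the 13405 with one. Among receptor genes, 0 of the 49 with an annotated 5′ UTR and 1 of the 130 without had such a summit. Within 500 bp to either side, 10 of the 130 receptor genes without a 5′ UTR (7.69%) and 29 of the 361 other genes without one (8.03%) had a pooled summit, so the groups were close. In replicate 1 these shares were 23.8% and 21.6%. Among genes with a 5′ UTR, 3 of the 49 receptor genes (6.12%) and 37.9% of the other genes had a pooled summit in that window, and in replicate 1 20.4% and 38.2%. In this window the gap to genes annotated in the same way was thus small for the 130 receptor genes without a 5′ UTR and large for the 49 with one. The part of the annotation in the result was not tested.

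**Figure D4:**
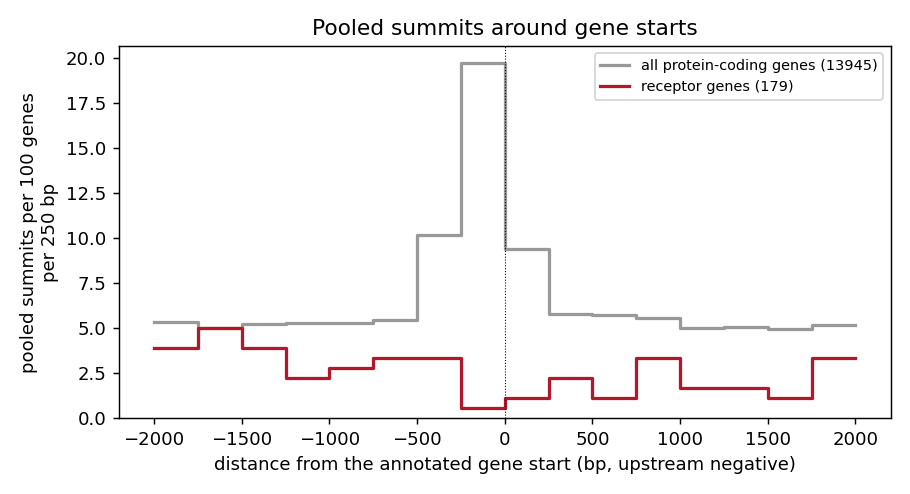
Pooled summits per 100 genes in bins of 250 bp around the annotated gene start, for the 179 receptor genes (red) and all 13945 protein-coding genes (grey). The grey line rises to 19.7 in the bin just upstream of the start, where the red line is at 0.559.

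Regions in receptor territories stood in part nearest to other genes. A pooled summit nearest to the receptor's own start was found in 39 receptor territories (21.8%, against 48.2% of protein-coding genes), and a reproducible one in 0, against 8.24%. Of the 66 distinct pooled summits, 44 were nearest to a receptor start and 22 to the start of another gene, with median signals of 17.1 and 19.0. Among genes with a pooled summit, 72.2% of receptor genes and 76.0% of all protein-coding genes had one nearest to their own start. Of the 39 receptor genes with the start of another protein-coding gene, not itself a receptor, in their territory, 18 had a pooled summit (46.2%), and of the 140 others 36 (25.7%). Such a start lay in the territory of 21.8% of receptor genes and of 61.8% of all protein-coding genes. With one, 70.8% of all protein-coding genes had a pooled summit, and without one 51.5%, so the receptor genes were lower in both classes. Starts of other receptor genes were not counted, so some of the 140, such as Gr22b, hold one in their territory.

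Regions nearest to a receptor's own start and within 500 bp of it were found at 12 receptor genes (6.70%), against 33.1% of protein-coding genes. The strongest was at Ir67c, 186 bp upstream of its start, with 23.2 in the pool, 13.3 in replicate 1 and 12.1 in replicate 2. It was followed by Or74a, a larval odorant receptor (19.7, 466 bp into the gene), and Ir94f (18.2, 69 bp into it). Pooled signals were 17.0 at Ir100a, 16.5 at Gr21a, 16.1 at Gr39b and 15.9 at Ir87a. The regions of Ir68b (15.9), Gr59f (15.8), Gr10a (15.8), Gr64a (15.5) and Gr77a (14.9) lay close to the floor of the list. The Gr10a region was also counted for Or10a, which is annotated over the same bases. Of these 12 regions only those of Ir67c and Gr59f had a summit within 200 bp in both replicates.

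Farther from the start, the strongest region nearest to a receptor gene lay downstream of Gr93a (3R, 21832503 to 21834013, plus strand), 1973 bp from its start. Gr93a is a receptor required for the taste of caffeine, and the region had 29.6 in the pool, 15.4 in replicate 1 and 14.8 in replicate 2. A further region downstream of a receptor gene, at Gr22f, had 24.1 in the pool, 11.96 in replicate 1 and no match in replicate 2, and lay 1990 bp from its start. A pair of reproducible peaks stood outside the territories but nearest to starts of the Gr93 group on 3R. The first peak lay 4071 bp upstream of Gr93a, with 76.9 in the pool, 35.2 in replicate 1 and 38.9 in replicate 2. The other lay 2414 bp upstream of Gr93d, between it and glec, which encodes a carbohydrate-binding protein, with 53.7 in the pool, 19.7 in replicate 1 and 25.1 in replicate 2. Gr93b, Gr93c and Gr93d lie between these peaks with Gr93a. The territory of Gr93b held 1 weak pooled summit (15.5), and Gr93c and Gr93d had a summit in none of the 4 lists. The pair of peaks beside Gr93a and Gr93d were the only ones of the 1664 whose nearest protein-coding start was that of a receptor.

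Coding sequence, of receptors or of their neighbours, held the largest share of the regions in receptor territories. Of the 66 pooled summits in receptor territories, 34 (51.5%) fell in coding sequence, 22 between genes, 5 in UTRs, 4 in introns and 1 in another exon. Part of the 34 fell in coding sequence of neighbours, namely Fnta, Cpr47Ea, Acat1, CG15196, CG42233, AIMP3, ppk3 and CG42449. In the territories of all protein-coding genes 18.6% of pooled summits and 0.402% of reproducible ones fell in coding sequence. Coding sequence makes up 40.9% of the receptor territories and 23.1% of all coding territories, so per length the difference turned around, with 111 pooled summits per Mb of coding sequence in receptor territories and 148 in all. Sequence between genes held 135 per Mb against 366, and introns 30.9 against 177. Intron bases in the receptor territories, those of neighbouring genes included, add up to 129271 bp. The bases counted include the bodies of Ir41a (104437 bp) and Ir40a (24851 bp), which held 0 pooled summits. How far the intron gap and the coding share rest on these long genes was not tested. Among summits in a receptor's own coding sequence, the strongest were at Ir94f (24.9, also in the territory of Ir94g), Gr97a (24.2), Ir31a (23.4) and Gr89a (22.5). Among these, Ir31a and Gr89a had no summit within 200 bp in either replicate. Ir94f had 15.7 in replicate 1 and 8.11 in replicate 2, and Gr97a had 10.5 and 15.4. The Ir31a summit lay 449 bp upstream of the neighbour Ip259, the nearest start.

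Fewer receptor summits than summits in general were matched in both replicates. Of the 66 pooled summits, 44 had a summit within 200 bp in replicate 1 (66.7%, against 62.2% of all pooled regions), 29 in replicate 2 (43.9%, against 70.5%) and 15 in both (22.7%, against 40.1%). A match was found in neither replicate for 8 (12.1%, against 7.38%). Of the 15 matched in both, 11 had the higher signal in replicate 2 (73.3%), as had 65.5% of the 8563 pooled regions matched in both. The lists lie on different scales, with a median signal of 8.68 in replicate 1 and 11.5 in replicate 2. Both replicates had a summit within 200 bp of each other at 17 receptor genes, against 40.9% of protein-coding genes.

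**Figure D5:**
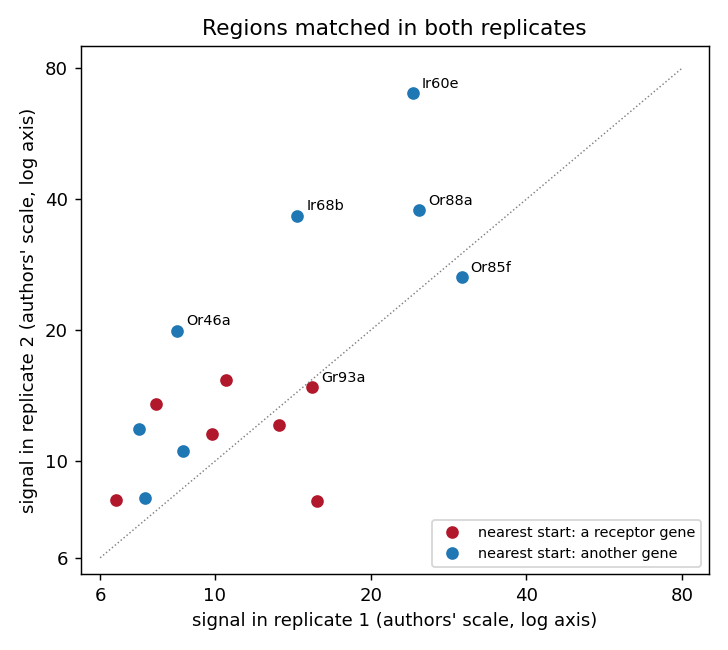
Signal in replicate 1 against signal in replicate 2 (log axes, authors' scale) for the 15 pooled summits in receptor territories matched within 200 bp in both, with the dotted line marking equal values. Ir60e stands highest in replicate 2 at 70.1, and Or85f is the only reproducible peak below the line.

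By function, a single reproducible peak fell in the lists, that of Or88a among trichoid receptors. The co-receptors had 0 reproducible peaks among 4. Ir25a, the partner of many ionotropic receptors, had 22.7 in the pool, 7.13 in replicate 1 and 11.9 in replicate 2, and its region lay in coding sequence of the neighbour Fnta. Ir76b had 18.1 in its own coding sequence, and Ir8a and Ir93a had no pooled summit. The replicate 2 region of Ir8a, with 14.6, lay 29 bp upstream of the neighbour CG12121. The odorant co-receptor Orco, which the naming rule does not include, held 3 pooled summits of at most 24.0 and no summit in replicate 2. Of the carbon dioxide receptors, Gr21a had 16.5 in the pool and Gr63a none.

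The counts that follow stand beside the 63.4% of all protein-coding genes with a pooled summit. The bitter receptors lay above that share with 4 of 5, and the sugar, antennal, temperature and humidity, larval and trichoid lists below it. Among 9 sugar receptors 3 had a pooled summit, at Gr43a, the fructose receptor (19.5), Gr64a (18.0, in the 5′ UTR of the neighbour CG11594) and Gr5a (15.6). The Gr5a region lay in coding sequence of the neighbour CG42449. Among 5 widely expressed bitter receptors 4 had one, at Gr32a (23.7), Gr89a (22.5), Gr33a (19.7) and Gr39a (18.8), and Gr66a had none. The Gr32a region lay nearer to the start of Idua, and those of Gr32a and Gr33a were matched in replicate 1 alone, at 16.7 and 13.7. Antennal ionotropic receptors had a pooled summit at 6 of 16 members, led by Ir31a (23.4), Ir25a and Ir76b. The temperature and humidity receptors had one at 2 of 6, Ir25a and Ir21a (17.1). The Ir31a and Ir21a regions lay nearer to the starts of the neighbours Ip259 and l(2)gl. Of 25 larval odorant receptors, whose neurons form in the embryo, 4 had a pooled summit, Or74a (19.7), Or47a (18.9), Or49a (17.3) and Or63a (16.2), and 0 a reproducible one. The Or47a region lay in coding sequence of the neighbour Cpr47Ea, and the Or49a region lay nearer to the start of Cpr49Ad. Of 12 receptors of trichoid sensilla 3 had a pooled summit, Or88a, Or65a (21.5) and Or67d, the receptor of a male pheromone (20.7). The lists overlap in part and, being small, their shares carry wide counting error.

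Receptor genes whose territories overlapped had a region less frequently than the others, a difference that was not tested. Territories overlapped for 72 receptor genes in 26 runs, and 16 of these genes had a pooled summit (22.2%) and 0 a reproducible one. Of the 107 receptor genes without such an overlap, 38 had a pooled summit (35.5%) and 3 a reproducible one. These 107 include genes that lie near others of their group, such as Gr93a. Of all protein-coding genes, 63.4% had a pooled summit and 13.2% a reproducible one. The runs Or22a to Or22b, Gr22d to Gr22a, Or85b to Or85c and Gr98b to Gr98d had no summit in any list. Gr64a to Gr64f, 6 sugar receptor genes, held 2 pooled summits, both in the territory of Gr64a. How the alignments treated reads that fit several copies is not given in the sources used here, and its part in these counts was not tested.

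Genes that act with the receptors or regulate their choice were read in the same way, from further lists. Of 11 partners of chemosensation 0 had a reproducible peak, and the strongest pooled regions were at ppk29, a channel subunit of pheromone-sensing neurons (50.7, with 16.4 in replicate 1 and 41.3 in replicate 2), Snmp2 (25.1) and Orco. Of 22 regulators of receptor choice and of olfactory sensilla 2 had a reproducible peak, against 13.2% of all protein-coding genes, and 19 a pooled one, against 63.4%. The peak of zf30C, a zinc-finger gene, lay 48 bp into the gene with 122.7 in the pool, 60.3 in replicate 1 and 53.1 in replicate 2. The elB peak, in an intron, had 56.7 in the pool, 12.2 in replicate 1 and 50.9 in replicate 2. The next was ct, which encodes a homeodomain factor (49.3 in the pool). acj6 and pdm3, POU factors required for the choice of odorant receptors, had at most 16.8 and 30.9. These regulators are long, with a median body of 21085 bp, so their counts are not comparable with those of the receptors.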

How the data were processed

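Region lists on dm6 were used as deposited: per the labels and the description files, 1 relaxed list for each replicate and 1 for their pool, made against a control, and a list of reproducible peaks taken from these by irreproducible discovery rate. Fragments were 200 to 800 bp, per the labels. The caller, aligner and their versions are not given in the sources used here. Signal values, as deposited, are the authors' score on an unstated scale, and the deposited −log10 q-values share a ceiling and were not used to rank. Among pooled summits in receptor territories, −log10 q was 2.72 for the strongest region of Ir68b and 0.973 for that of Or46a. It was 0.809 for the strongest region of Gr93a, 0.346 for that of Ir67c and 0.018 for the weakest summit, at Ir64a. The relaxed lists thus hold many weak regions that may be background. Of the regions of replicate 1, 29996 lay on the 6 arms used. The dm3 lists were not used here.

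Gene models were those of Ensembl release 115, in dm6 coordinates, and the sequence was RefSeq's for Release 6. Summits were assigned to territories and to the nearest protein-coding transcription start, and replicates matched within 200 bp, in Python 3.11.15 with pandas 2.3.3. Counting, nearest starts and densities were checked on simulated summits. No test across genes was made. Wilson and exact Poisson intervals are at 95%. Territories of several genes can share a summit.

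The members, lists and tests were chosen with earlier results of these data known. Named genes were those with a reproducible peak, the 15 with the strongest pooled regions, the 5 with most summits, those with a summit at their start, the co-receptors, the carbon dioxide receptors and the 3 strongest of each list. The Gr93 peaks, Or9a, Ir40a, Ir41a, the runs without regions and further list members were named after their values were seen.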

Additional observations from a re-analysis of the deposited data

How the results depend on the processing

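Receptor genes with a reproducible peak numbered 3 from the strongest regions of either replicate alone, with 2 kb flanks (16.2% of all protein-coding genes) and with any overlap of the peak, and 2 (Gr93a and Gr93d in place of the others) by nearest start (9.38%). The count was 1 with peaks above the median signal and 0 in gene bodies alone, where 5.41% of all protein-coding genes have a peak. Summits per Mb were 4.0 from either replicate alone, 3.95 with 2 kb, 1.33 above the median signal and 0 in gene bodies. Without Ir40a and Ir41a they were 4.87, against 15.1 in the territories of all protein-coding genes. Receptor genes with a pooled region numbered 54, from 41 to 90 with 1 replicate left out, 72 with 2 kb (72.4% of all protein-coding genes), 17 with regions above the list's median signal (45.8%) and 24 in gene bodies (40%). Those with a region in both replicates fell from 40 to 11 with regions above each list's median (38.7% of all protein-coding genes) and to 17 with summits within 200 bp (40.9%). Those nearest to a pooled summit numbered 39 (48.2% of all protein-coding genes), 33 with starts of any gene and 12 within 500 bp (33.1%). Shares over all protein-coding genes are not given for starts of any gene, reproducible peaks above the median signal or any overlap. Densities over all coding territories are likewise not given for the other settings of summits per Mb. Those counts and densities therefore do not show whether the contrast with other genes changed. The fewer regions or bases counted reduce these numbers by construction. No paired analysis was possible because the samples form 1 group. Unknown depth and the end of each list at a fixed number or signal limit what absence of a region shows.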
